A study of Mus musculus with 12 samples.

Results

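The genes described here are 50 markers of macrophages, neutrophils and dendritic cells: surface receptors, lysosomal and secreted enzymes, complement components and lineage factors of myeloid cells. They were chosen by name, for the cells they mark, from the 45777 genes of the expression table, and all 50 were found in it. No threshold on a measured value set the list, but it was drawn up with earlier results of these libraries known, among them a higher level of myeloid genes in the combination, so the counts over the list describe it and are not independent evidence of its direction. The data are RNA-seq of mouse splenic CD4+-T cells, isolated with CD4-coated magnetic beads and kept for 3 days with an antibody to CD3 at 0.5 ug/mL, a stimulus that acts through the T-cell receptor. All 4 groups received this stimulus. The first received nothing else and is called anti-CD3 alone, the second *L. acidophilus* (a lactic acid bacterium used as a probiotic), the third FK506 (tacrolimus, an inhibitor of calcineurin) and the fourth *L. acidophilus* plus FK506, here called the combination. In the study's methods for cell culture the bacterium is described as inactivated by heat. Each group had 3 libraries, numbered 1 to 3. The labels give wild type Balb/c mice aged 7 weeks, whereas the study's text names B6 mice. Nothing in the labels says that the 3 libraries of a group came from separate animals or cultures, so the p-values measure only the spread between these libraries.

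Myeloid cells engulf microbes and dead cells, and the genes that mark them serve that task: receptors that bind microbial sugars, antibody or modified lipoprotein, signalling adaptors of those receptors, and enzymes of the lysosome. The spleen is rich in such cells, and T cells and B cells express most of these genes weakly or not at all. The transcription factor PU.1, product of *Spi1*, and the C/EBP factors are required for the myeloid lineage, PU.1 also for B cells.

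PU.1 binds purine-rich DNA around a GGAA core, and the letters GAGGAA are a common form of its site. They were searched for on both strands (as GAGGAA or TTCCTC) in the 250 bases before the first listed transcript start of each gene, with promoter sequences of RefSeq (GRCm38.p6) for 39 of the 50 genes. For some genes, such as *Zbtb46* and *Csf3r*, these bases lie within the gene as placed here. The letters were found in 21 of these 39 promoters (53.8%) and in 6252 of the 27025 promoters of all genes in the same table (23.1%). Among the 28 of the 39 genes that rose in the combination against anti-CD3 alone, 18 held them, and among the other 11 genes 3 did. The C/EBP palindrome TTGCGCAA was found in 0 of the 39 promoters and in 46 of the 27025 (0.17%). A match is a run of letters and not a measured binding site. The promoters of 4 members are printed 5′ to 3′ on the gene's strand, with the matches in capitals. They are *Mrc1* (chr2 plus strand, chr2:14229164-14229413), which held 3 matches, the most among the printed promoters, *Clec4e* (minus strand, chr6:123289872-123290121) with 2, *S100a8* (plus strand, chr3:90668821-90669070), which held 2 although no library had a count of it, and *Lyz2* (minus strand, chr10:117282273-117282522), which held none although it was among the members with the highest level in the combination.
*Mrc1*: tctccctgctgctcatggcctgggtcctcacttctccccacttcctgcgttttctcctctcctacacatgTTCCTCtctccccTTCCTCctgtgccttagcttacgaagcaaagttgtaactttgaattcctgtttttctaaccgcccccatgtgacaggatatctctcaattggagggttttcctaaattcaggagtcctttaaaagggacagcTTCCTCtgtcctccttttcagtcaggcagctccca
*Clec4e*: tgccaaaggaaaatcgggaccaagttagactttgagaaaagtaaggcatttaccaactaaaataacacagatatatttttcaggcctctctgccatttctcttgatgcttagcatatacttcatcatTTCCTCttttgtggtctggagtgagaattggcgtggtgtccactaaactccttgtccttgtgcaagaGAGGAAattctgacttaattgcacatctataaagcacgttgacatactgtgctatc
*S100a8*: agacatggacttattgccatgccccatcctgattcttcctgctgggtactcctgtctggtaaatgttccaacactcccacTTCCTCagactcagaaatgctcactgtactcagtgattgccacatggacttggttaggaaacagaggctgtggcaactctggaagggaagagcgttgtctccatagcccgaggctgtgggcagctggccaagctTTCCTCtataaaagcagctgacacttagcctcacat
*Lyz2*: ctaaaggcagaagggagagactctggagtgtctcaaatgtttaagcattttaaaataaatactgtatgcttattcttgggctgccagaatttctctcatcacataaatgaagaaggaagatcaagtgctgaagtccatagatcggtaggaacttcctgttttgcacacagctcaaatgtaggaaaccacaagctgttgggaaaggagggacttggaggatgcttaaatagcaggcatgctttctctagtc

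Libraries held between 45416397 and 64658165 counts, and replicate 1 was the deepest of each group. The 10 T-cell markers checked (*Cd3e*, *Cd4*, *Lck* and others) were detected in all 12 libraries, with a summed level of 1749 to 2446 FPKM (fragments scaled to transcript length and sequencing depth) in the other groups and 2484 to 2867 in the combination, and 0 of the 10 were called in any of the 5 comparisons of groups, while the test of additivity, described further on, called 1. Calls required a 2-fold change. An unadjusted p under 0.05 (edgeR) was reached by 7 of the 10 in the combination, 3 with FK506 and 5 with *L. acidophilus*, each against anti-CD3. It was reached by 5 in the combination against FK506 and 3 against *L. acidophilus*. Libraries of 1 group differed by more than counting noise in every pair. In bulk RNA, fewer cells of a type and less RNA per cell cannot be told apart, and this holds for all levels given here.

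The 50 genes were scarce in cells given anti-CD3 alone and *L. acidophilus* alone, more abundant with FK506 and most abundant with the combination. Their summed level was 36.2, 34.0 and 34.5 FPKM with anti-CD3 alone, 44.2, 37.4 and 34.3 with *L. acidophilus*, 140.3, 120.0 and 73.0 with FK506, and 366.0, 281.4 and 279.7 with the combination. The FK506 libraries lay above every anti-CD3 and *L. acidophilus* library, and the combination libraries lay above every FK506 library. *Ctss* alone made up between 31.8% and 55.8% of the sum. Without it, the sums were 16.4 to 23.6 FPKM with anti-CD3 alone and 183.5 to 241.9 with the combination, so the order did not rest on this gene. In CPM (counts scaled to library size), the members together made up 63.4 to 71.8 with anti-CD3 alone, 65.3 to 91.5 with *L. acidophilus* alone, 146.0 to 286.6 with FK506 alone and 604.2 to 759.7 with the combination.

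**Figure D1:**
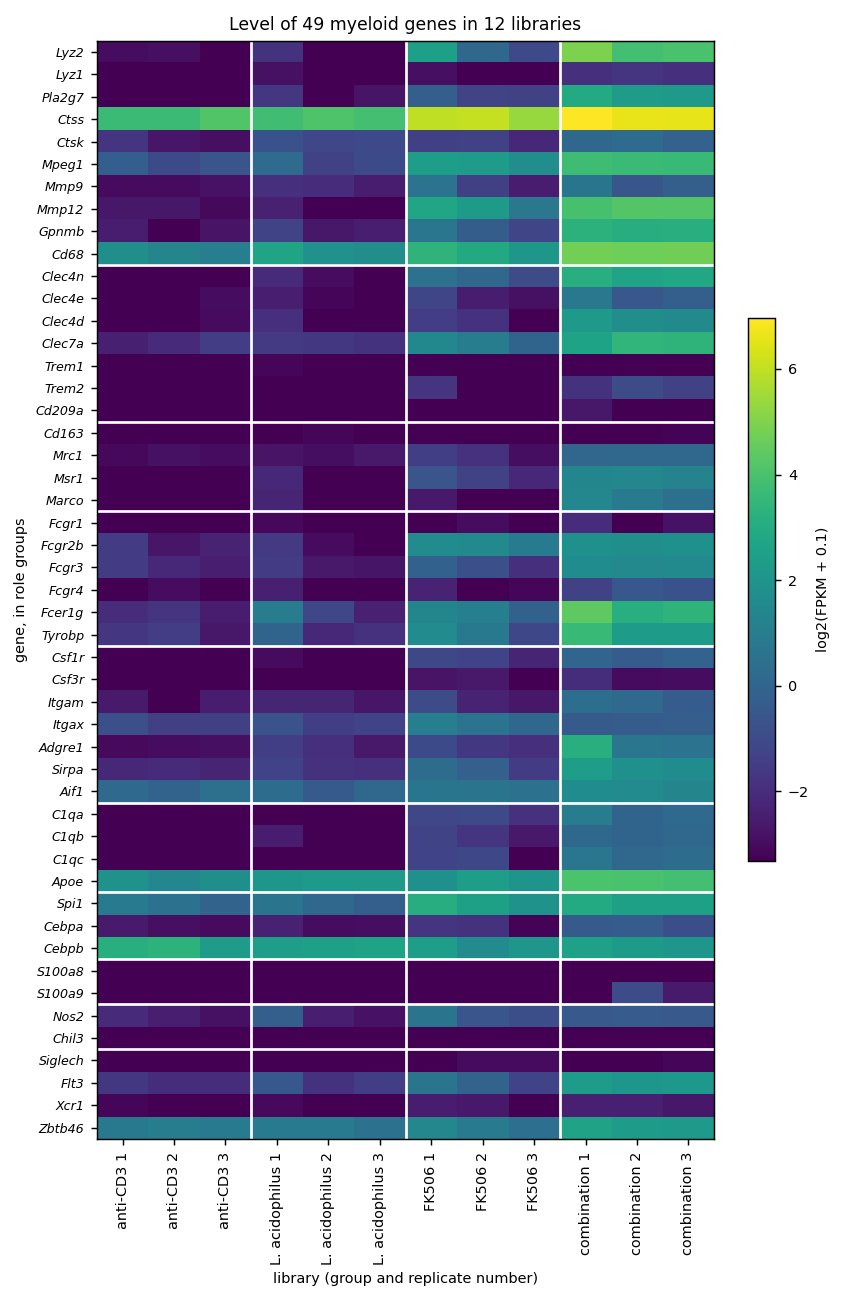
Level of 49 of the 50 genes (rows, in role groups) in each of the 12 libraries (columns), as colour on a log2(FPKM + 0.1) scale from dark blue (0 FPKM) to yellow. The 3 combination columns at the right are the brightest in most rows, and the *S100a8* and *Chil3* rows are dark in all 12 columns.

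Detection followed the same order. All 3 libraries of a group had a count above 0 for 23 of the 50 genes with anti-CD3 alone, 24 with *L. acidophilus*, 34 with FK506 and 42 with the combination. Conversely, 19 genes were at 0 in all 3 anti-CD3 libraries, 9 in all *L. acidophilus* libraries, 6 in all FK506 libraries and 3 in all combination libraries. The group with the highest mean FPKM was the combination for 41 genes, FK506 for 4 (among them *Itgax*, *Nos2* and *Siglech*), *L. acidophilus* for 2 (*Trem1* and *Cd163*) and anti-CD3 alone for 1 (*Cebpb*), and 2 genes were at 0 throughout. Mean levels followed the order anti-CD3, FK506, combination for 39 of the 50.

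Each comparison was tested gene by gene with edgeR's quasi-likelihood test over the 23585 genes with a count in at least 3 libraries, of which 44 were members. A call required an adjusted p (Benjamini-Hochberg) below 0.05 together with a change of 2-fold or more. Against anti-CD3 alone, the combination was called higher for 39 of the 50 members and lower for 0, whereas 13.8% of all genes tested were called higher and 10.8% lower. FK506 against anti-CD3 was called higher for 28 members and lower for 1 (*Cebpb*), against 6.44% and 4.12% of all genes. *L. acidophilus* against anti-CD3 was called for 0 members in either direction, against 0.157% of all genes higher and 0.0297% lower. In this comparison 7 members had an unadjusted p under 0.05 (4 to 14 with single libraries left out, 14 without *L. acidophilus* replicate 2), and DESeq2, which called 1.86% of all genes in either direction, called 4 of the members higher. A fit that took the replicate number as a block called 69 genes in place of 44 (0.293% of all), again with 0 members, and 13 members had an unadjusted p under 0.05. These 3 comparisons share the anti-CD3 libraries. Without FK506 replicate 1, 18 members were called higher with FK506 against anti-CD3. In that fit 8.35% of all genes were called in either direction, against 10.6% with all libraries. The fall of *Cebpb* was not called without anti-CD3 replicates 1 or 2 or FK506 replicates 2 or 3 (highest adjusted p = 0.0917). A gene listed at 0 in anti-CD3 alone enters the test only through the groups where it is present, so the 23 members with a count in all 3 anti-CD3 libraries were also counted by themselves. Of these, 21 were called higher in the combination (all but *Cebpb* and *Itgax*) and 17 in FK506, while 12.4% and 6.35% of all genes so detected were. Their median log2 fold change was 3.73 in the combination and 2.00 in FK506, and that of all such genes was -0.10 and -0.06.

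**Figure D2:**
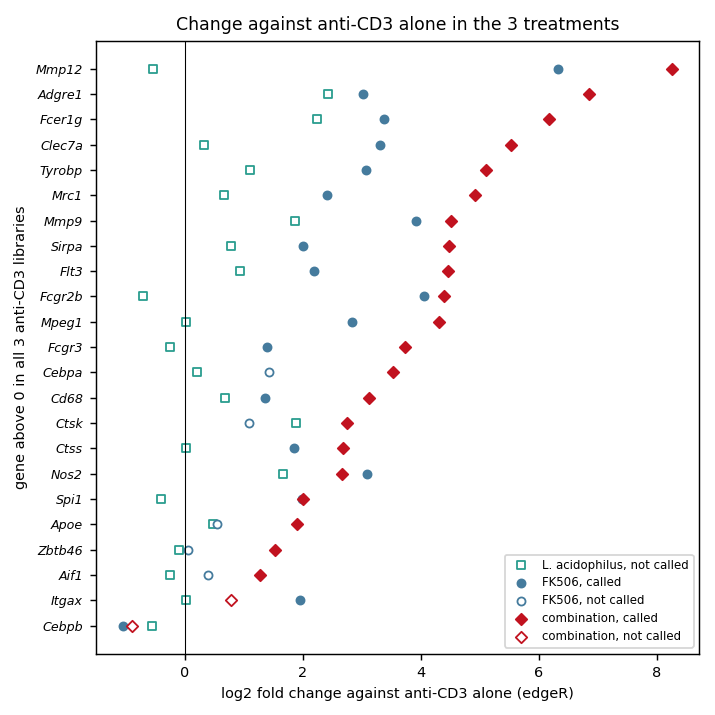
Log2 fold change against anti-CD3 alone (horizontal axis, edgeR) of the 23 members with a count in all 3 anti-CD3 libraries, for *L. acidophilus* (squares), FK506 (circles) and the combination (diamonds), with filled symbols where a gene was called. The combination exceeded FK506 for most genes, whereas *Itgax* and *Nos2* lay further right with FK506, and for *Spi1* both symbols coincide near 2.

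Of the 10 lysozymes, lysosomal and secreted enzymes, all 10 rose in the combination against anti-CD3 alone and 8 rose with FK506. *Lyz2* (gene ID 17105, chr10:117277541-117282272), the lysozyme of macrophages and granulocytes, had FPKM values, in the order of replicates 1, 2 and 3, of 0.0257, 0.0327 and 0 with anti-CD3 alone, 0.181, 0 and 0 with *L. acidophilus*, 5.55, 1 and 0.378 with FK506 and 30.8, 14.5 and 16.1 with the combination. The 3 combination libraries lay above all others, replicate 1 highest, and the FK506 libraries above those of anti-CD3 and *L. acidophilus*. Its log2 fold change against anti-CD3 alone was 9.40 ± 1.32 (SE) in the combination (adjusted p = 0.000164, edgeR) and 6.34 ± 1.31 (SE) with FK506 (adjusted p = 0.00646), and it was 3.06 ± 0.85 (SE) in the combination against FK506 (adjusted p = 0.0266). The last of these calls was lost without FK506 replicates 2 or 3 or combination replicates 1 or 3 (highest adjusted p = 0.0837), and without FK506 replicate 1 the value was 4.80. *Lyz1* (gene ID 17110), the lysozyme of Paneth cells, lies 5.5 kb from *Lyz2* and shares 425 of its 447 coding bases with it (95.1%), so reads can be split between the pair. Its counts ranged from 12 to 16 in the combination and from 0 to 4 in the other groups, and the combination was at least 4.27-fold higher than anti-CD3 alone, counted against 3 counts per library.

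*Pla2g7* (gene ID 27226, chr17:43567994-43612202), the secreted hydrolase of platelet-activating factor, had an FPKM of 0 in all 3 libraries with anti-CD3 alone, 0.212, 0 and 0.0475 with *L. acidophilus*, 0.755, 0.328 and 0.296 with FK506 and 7.78, 4.84 and 4.51 with the combination. No anti-CD3 library had a count, and the combination libraries lay above all FK506 libraries. Against the floor of 3 counts per library, the combination was at least 219-fold higher than anti-CD3 alone (adjusted p = 9.68e-05, edgeR) and FK506 at least 18.2-fold higher (adjusted p = 0.00463). *Mmp12* (gene ID 17381, chr9:7344397-7360461), the elastase of macrophages, rose furthest among the members with a count in every anti-CD3 library and was picked after its values were seen. Its FPKM was 0.057, 0.0603 and 0.0179 with anti-CD3 alone, 0.0911, 0 and 0 with *L. acidophilus*, 6.56, 4.8 and 1.6 with FK506 and 15.7, 18.6 and 18.3 with the combination. The 4 groups ran from near 0 to a combination range that overlapped no other, and the log2 fold change against anti-CD3 was 8.26 ± 0.81 (SE) in the combination (adjusted p = 1.96e-05, edgeR) and 6.32 ± 0.78 (SE) with FK506 (adjusted p = 0.000382).

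*Ctss*, cathepsin S, which trims the invariant chain of MHC class II molecules and is also expressed by B cells, was the most abundant member. Its FPKM was 12.6, 12.7 and 18 with anti-CD3 alone, 14, 17.4 and 14.7 with *L. acidophilus*, 62.8, 66 and 40.7 with FK506 and 124, 96.6 and 96.2 with the combination. The log2 fold change against anti-CD3 was 2.68 ± 0.20 (SE) in the combination (adjusted p = 6.51e-06, edgeR) and 1.86 ± 0.19 (SE) with FK506 (adjusted p = 0.000163). Among the remaining enzymes, mean FPKM in the combination ranged from 0.949 for *Mmp9* (gelatinase B) to 26.4 for *Cd68* (macrosialin, a lysosomal membrane protein), with *Ctsk* (cathepsin K), *Mpeg1* (perforin-2, which forms pores in engulfed bacteria) and *Gpnmb* between them. Their log2 fold changes in the combination against anti-CD3 ran from 2.75 for *Ctsk* to 7.48 for *Gpnmb*, with adjusted p-values of at most 0.0016 in edgeR. With FK506, *Ctsk* was not called (adjusted p = 0.189, edgeR).

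The C-type lectins bind fungal and mycobacterial sugars and lipids, and the 4 on the list that form this group by name, Dectin-2 (*Clec4n*), Mincle (*Clec4e*), MCL (*Clec4d*) and Dectin-1 (*Clec7a*), all rose in the combination. *Clec4n*, *Clec4d* and *Clec4e* lie side by side on chromosome 6, 15.1 and 6.5 kb apart. *Clec4n* (gene ID 56620, chr6:123229843-123247024) had an FPKM of 0 in all 3 libraries with anti-CD3 alone, 0.141, 0.0272 and 0 with *L. acidophilus*, 1.36, 0.972 and 0.426 with FK506 and 8.93, 6.39 and 7.15 with the combination. Its FK506 libraries lay above all anti-CD3 and *L. acidophilus* libraries and below all combination libraries. The combination was at least 168-fold (adjusted p = 4.81e-05, edgeR) and FK506 at least 22-fold (adjusted p = 0.00154) higher than anti-CD3 alone. *Clec4d* (gene ID 17474, chr6:123262107-123275268) had an FPKM of 0, 0 and 0.0242 with anti-CD3 alone, 0.166, 0 and 0 with *L. acidophilus*, 0.265, 0.184 and 0 with FK506 and 4.45, 3.29 and 2.81 with the combination. With only 2 counts in the anti-CD3 libraries, its ratio in the combination was 408-fold (95% interval 113 to 3372), with an exact binomial interval that covers counting error only (adjusted p = 0.00054, edgeR). With FK506, where replicate 3 was at 0, it was not called (adjusted p = 0.1).

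*Clec7a*, named after its values were seen, was the lectin with the highest level in the combination. Its FPKM was 0.0871, 0.136 and 0.266 with anti-CD3 alone, 0.237, 0.22 and 0.184 with *L. acidophilus*, 2.7, 1.94 and 0.891 with FK506 and 6.05, 10.9 and 10.3 with the combination. Here replicate 1 was the lowest combination library. The combination libraries still lay above all FK506 libraries, and these above the anti-CD3 and *L. acidophilus* libraries, which overlapped. Its log2 fold change was 5.53 ± 0.47 (SE) against anti-CD3 (adjusted p = 9.68e-06, edgeR) and 2.22 ± 0.39 (SE) against FK506 (adjusted p = 0.00271). *Clec4e* ranged from 0 to 4 counts with anti-CD3 alone and from 78 to 295 counts in the combination. The other pattern receptors were rare. *Trem2*, a receptor for lipids and apolipoproteins, had 16, 25 and 19 counts in the combination, 16 counts in FK506 replicate 1 and 0 in all other libraries. Against anti-CD3 alone it was at least 6.46-fold higher in the combination (adjusted p = 0.0226, edgeR), a call lost without combination replicate 2 (highest adjusted p = 0.0528). *Trem1*, a neutrophil and monocyte receptor, had 4 counts in *L. acidophilus* replicate 1, and *Cd209a*, a dendritic cell lectin, 7 counts in combination replicate 1, with 0 in the other 11 libraries each.

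Of the 4 scavenger and mannose receptors, 3 rose in the combination. *Msr1* (gene ID 20288, chr8:39543232-39642750), the class A receptor for modified lipoprotein, had an FPKM of 0 in all 3 libraries with anti-CD3 alone, 0.121, 0 and 0 with *L. acidophilus*, 0.556, 0.297 and 0.12 with FK506 and 2.5, 2.64 and 2.33 with the combination. FK506 replicates 1 and 2 lay above every *L. acidophilus* library, FK506 replicate 3 was level with *L. acidophilus* replicate 1, and all combination libraries exceeded all FK506 libraries. The combination was at least 168-fold higher than anti-CD3 alone (adjusted p = 0.000442, edgeR). *Marco* (gene ID 17167, chr1:120474538-120505024), which binds bacteria on marginal zone macrophages of the spleen, had an FPKM of 0 in all 3 libraries with anti-CD3 alone, 0.11, 0 and 0 with *L. acidophilus*, 0.0646, 0 and 0 with FK506 and 2.61, 1.86 and 1.27 with the combination. It was close to absent outside the combination. The combination was at least 68.7-fold higher than anti-CD3 (adjusted p = 0.00101, edgeR), and its log2 fold change against FK506 was 6.15 ± 1.20 (SE) (adjusted p = 0.00698). The FK506 value rests on 9 counts in replicate 1, with 0 in replicates 2 and 3, so this fold is not a bound and depends on that library. The call held with each library left out, and DESeq2 did not make it. *Mrc1*, the mannose receptor whose promoter is printed above, had 7 to 12 counts with anti-CD3 alone, 10 to 19 with *L. acidophilus* alone, 9 to 107 with FK506 alone and 275 to 361 with the combination, with a log2 fold change of 4.92 ± 0.64 (SE) against anti-CD3 (adjusted p = 9.84e-05, edgeR). *Cd163*, the haemoglobin scavenger of red pulp macrophages, had 3 counts in *L. acidophilus* replicate 2, 3 in combination replicate 3 and 0 elsewhere. With a floor of 3 counts it was not detectable at this depth in any group.

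Among the Fc receptors and their adaptors, 5 of 6 rose in the combination and 4 with FK506. *Fcer1g* (gene ID 14127, chr1:171229572-171234349), the gamma chain through which activating Fc receptors and Dectin-2 signal, had an FPKM of 0.145, 0.203 and 0.078 with anti-CD3 alone, 1.87, 0.357 and 0.091 with *L. acidophilus*, 2.55, 2.07 and 0.821 with FK506 and 21, 8.65 and 10.2 with the combination. Combination replicate 1 was the highest of all libraries, and *L. acidophilus* replicate 1 lay within the FK506 range. Its log2 fold change against anti-CD3 was 6.17 ± 0.92 (SE) in the combination (adjusted p = 0.00024, edgeR) and 3.38 ± 0.88 (SE) with FK506 (adjusted p = 0.0196). The FK506 call was lost without anti-CD3 replicates 1, 2 or 3 or FK506 replicates 1 or 2 (highest adjusted p = 0.0604). *Tyrobp* (gene ID 22177, chr7:30413782-30417582), the adaptor DAP12 of Trem2, had an FPKM of 0.208, 0.268 and 0.0569 with anti-CD3 alone, 0.884, 0.123 and 0.173 with *L. acidophilus*, 2.97, 1.71 and 0.372 with FK506 and 11.9, 4.82 and 4.96 with the combination. As with *Fcer1g*, replicate 1 was the highest library of the *L. acidophilus*, FK506 and combination groups. Its log2 fold change was 5.10 ± 0.91 (SE) in the combination (adjusted p = 0.000802, edgeR) and 3.07 ± 0.88 (SE) with FK506 (adjusted p = 0.0304), the latter lost without anti-CD3 replicates 1, 2 or 3 or FK506 replicates 1 or 2 (highest adjusted p = 0.116).

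*Fcgr2b*, *Fcgr3* and *Fcgr4* lie in a cluster of related genes on chromosome 1, in which *Fcgr2b* and *Fcgr4* are 42.9 kb apart and *Fcgr4* and *Fcgr3* 21.4 kb, and counting could split reads between such relatives. *Fcgr2b*, the inhibitory receptor, which B cells also carry, had an FPKM of 0.243, 0.0541 and 0.096 with anti-CD3 alone, 0.238, 0.0218 and 0 with *L. acidophilus*, 3.01, 2.94 and 1.76 with FK506 and 3.48, 3.41 and 3.45 with the combination. It was nearly level between FK506 and the combination, with a log2 fold change of 0.34 ± 0.63 (SE) (adjusted p = 0.765, edgeR), and was 4.39 ± 0.77 (SE) in the combination against anti-CD3 (adjusted p = 0.000729). *Fcgr3*, an activating receptor of low affinity, had an FPKM of 0.252, 0.121 and 0.0834 with anti-CD3 alone, 0.256, 0.064 and 0.0516 with *L. acidophilus*, 0.815, 0.467 and 0.171 with FK506 and 3.12, 2.74 and 2.81 with the combination. Every combination library lay more than 3-fold above every other library, and the log2 fold change was 3.73 ± 0.44 (SE) against anti-CD3 (adjusted p = 5.41e-05, edgeR) and 2.34 ± 0.40 (SE) against FK506 (adjusted p = 0.00254). *Fcgr4* had 27, 38 and 35 counts in the combination and a summed count ratio to anti-CD3 of 47.2-fold (95% interval 12.7 to 395) (adjusted p = 0.0123, edgeR). *Fcgr1* (gene ID 14129, chr3:96282909-96293969), the high affinity receptor of monocytes and macrophages, had an FPKM of 0 in all 3 libraries with anti-CD3 alone, 0.0179, 0 and 0 with *L. acidophilus*, 0, 0.0261 and 0 with FK506 and 0.147, 0 and 0.0421 with the combination. Its counts in the combination were 28, 0 and 6, and it was not called (adjusted p = 0.0587, edgeR).

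**Figure D3:**
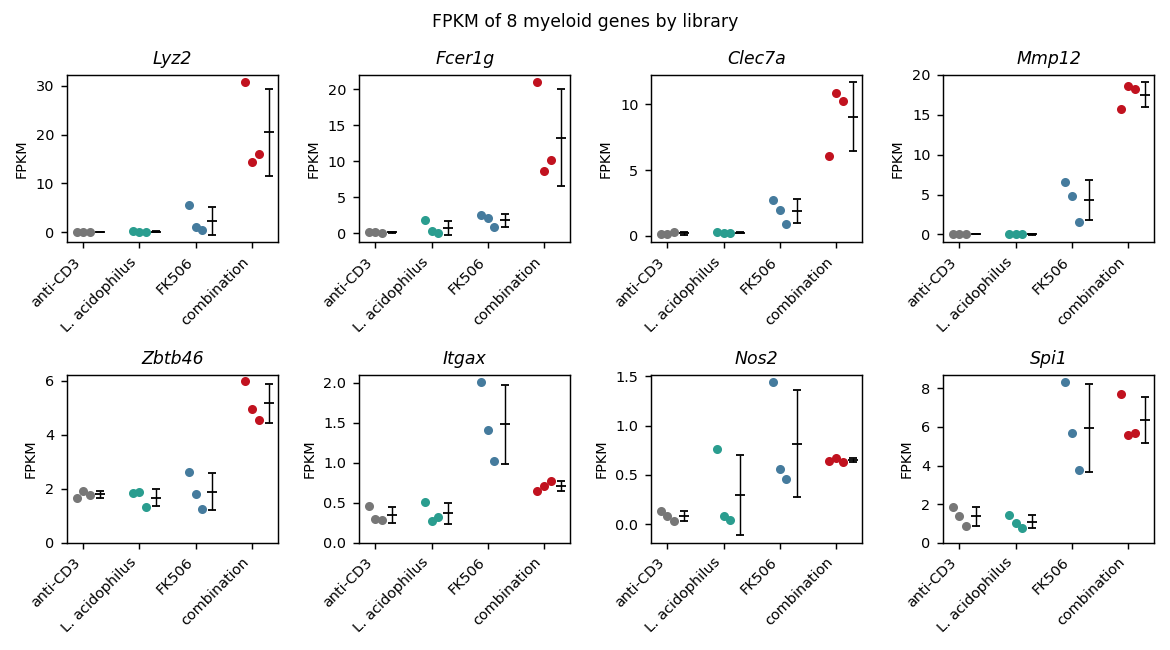
FPKM of 8 members in each library (points, replicates 1 to 3 from left to right, linear axes) for the 4 groups, with the mean and SD of 3 libraries as a bar at the right of each group. In the upper row the combination libraries lie apart from all others, while *Itgax* is highest with FK506 and the FK506 and combination points of *Nos2* and *Spi1* overlap.

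The receptors for growth factors, integrins and other lineage proteins of the surface did not all move alike. *Csf1r* (gene ID 12978), the receptor on which macrophages depend, had an FPKM of 0 in all 3 libraries with anti-CD3 alone, 0.0227, 0 and 0 with *L. acidophilus*, 0.367, 0.32 and 0.108 with FK506 and 0.921, 0.705 and 0.834 with the combination. It was at 0 in 5 of the 6 libraries without FK506 and above 0 in all 6 libraries with it. It was at least 59.1-fold higher in the combination (adjusted p = 0.000128, edgeR) and at least 20.3-fold higher with FK506 (adjusted p = 0.00167) than with anti-CD3 alone. *Adgre1* (gene ID 13733, chr17:57358581-57483529), which encodes the macrophage marker F4/80, had an FPKM of 0.0198, 0.0266 and 0.0357 with anti-CD3 alone, 0.274, 0.172 and 0.0619 with *L. acidophilus*, 0.392, 0.222 and 0.158 with FK506 and 8.74, 1.55 and 1.4 with the combination. Combination replicate 1 stood above the other combination libraries by more than 5-fold. In the combination its log2 fold change was 6.85 ± 0.92 (SE) against anti-CD3 (adjusted p = 0.000123, edgeR) and 3.83 ± 0.74 (SE) against FK506 (adjusted p = 0.00469). Without combination replicate 1 the first of these was 5.41 and the second 2.40, and both were still called.

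*Itgam* (gene ID 16409, chr7:128062640-128118491) and *Itgax* (gene ID 16411, chr7:128129526-128150657), which encode the integrin chains CD11b and CD11c, are neighbours 11.0 kb apart on chromosome 7. *Itgam* had an FPKM of 0.0679, 0 and 0.0767 with anti-CD3 alone, 0.107, 0.108 and 0.0544 with *L. acidophilus*, 0.425, 0.106 and 0.0563 with FK506 and 1.2, 1.03 and 0.69 with the combination. All combination libraries lay above all others, FK506 replicate 1 being the nearest, with a log2 fold change of 4.10 ± 0.87 (SE) against anti-CD3 (adjusted p = 0.00258, edgeR). Against FK506 it was 2.22 ± 0.78 (SE) and not called (adjusted p = 0.0668). *Itgax* had an FPKM of 0.463, 0.29 and 0.286 with anti-CD3 alone, 0.512, 0.271 and 0.315 with *L. acidophilus*, 2.01, 1.4 and 1.02 with FK506 and 0.648, 0.706 and 0.766 with the combination. Here the FK506 libraries were the highest, and the combination libraries lay between them and the rest without overlap. It rose with FK506 (1.95 ± 0.31 (SE), adjusted p = 0.00148, edgeR), was not called in the combination against anti-CD3 (0.77 ± 0.30 (SE), adjusted p = 0.0584), and fell in the combination against FK506 (-1.18 ± 0.30 (SE), adjusted p = 0.018). That last call was lost without FK506 replicate 1 or combination replicates 1, 2 or 3 (highest adjusted p = 0.072), and limma did not make it.

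*Csf3r* (gene ID 12986, chr4:126023441-126044975), the granulocyte colony-stimulating factor receptor of neutrophils, had an FPKM of 0 in all 3 libraries with anti-CD3 alone, 0 in all 3 libraries with *L. acidophilus*, 0.0452, 0.0612 and 0 with FK506 and 0.151, 0.022 and 0.0261 with the combination. With 46, 6 and 7 counts in the combination, it was at least 5.53-fold higher than with anti-CD3 (adjusted p = 0.0224, edgeR), and without combination replicate 1 (highest adjusted p = 0.0606) the call was lost. *Sirpa*, a receptor for CD47, and *Aif1*, which encodes the actin-binding protein Iba1, rose in the combination by 4.47 ± 0.52 (SE) and 1.27 ± 0.24 (SE) on the log2 scale (adjusted p = 5.22e-05 and 0.00122, edgeR). *Aif1* was present at 1.07 ± 0.208 FPKM (SD, n = 3) with anti-CD3 alone.

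The 3 chains of complement C1q are encoded side by side on chromosome 4, within 3.6 and 3.0 kb of each other, and are made together by tissue macrophages and dendritic cells. *C1qa* (gene ID 12259, chr4:136895916-136898844) had an FPKM of 0 in all 3 libraries with anti-CD3 alone, 0 in all 3 libraries with *L. acidophilus*, 0.354, 0.388 and 0.178 with FK506 and 1.97, 0.892 and 1.05 with the combination. *C1qc* (gene ID 12262, chr4:136889801-136892936) had an FPKM of 0 in all 3 libraries with anti-CD3 alone, 0 in all 3 libraries with *L. acidophilus*, 0.321, 0.369 and 0 with FK506 and 1.53, 1.01 and 1.14 with the combination. The C1q genes were at 0 in 5 of the 6 libraries without FK506 or, for *C1qa* and *C1qc*, in all 6, and the combination libraries lay above the FK506 libraries for each chain. Against anti-CD3 alone the combination was at least 26.5-fold higher for *C1qa*, 24.5-fold for *C1qc* and 19.7-fold for *C1qb* (adjusted p = 0.000129, 0.00264 and 0.000606, edgeR). With FK506 the bounds were 6.68, 4.97 and 4.3 (adjusted p = 0.00238, 0.0335 and 0.013). The FK506 call of *C1qc*, which was at 0 in FK506 replicate 3, was lost without anti-CD3 replicates 1, 2 or 3, FK506 replicates 1 or 2 or combination replicates 2 or 3 (highest adjusted p = 0.0949), and with the replicate number as a block. *Apoe*, the lipoprotein ligand made by macrophages and other cells, was present in all 12 libraries and had an FPKM of 3.72, 2.59 and 3.35 with anti-CD3 alone, 4.25, 4.48 and 4.45 with *L. acidophilus*, 3.51, 5.13 and 3.93 with FK506 and 16.4, 16.1 and 14.7 with the combination. Only the combination stood apart, with a log2 fold change of 1.90 ± 0.19 (SE) against anti-CD3 (adjusted p = 1.89e-05, edgeR) and 1.35 ± 0.18 (SE) against FK506 (adjusted p = 0.000722).

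The 3 lineage transcription factors each had a pattern of their own. *Spi1* (gene ID 20375, chr2:91082374-91115759) had an FPKM of 1.84, 1.38 and 0.866 with anti-CD3 alone, 1.45, 1.02 and 0.766 with *L. acidophilus*, 8.33, 5.71 and 3.79 with FK506 and 7.73, 5.61 and 5.7 with the combination. The FK506 and combination libraries overlapped and both lay above the rest. Its log2 fold change against anti-CD3 was 2.00 ± 0.36 (SE) in the combination (adjusted p = 0.000853, edgeR) and 1.99 ± 0.36 (SE) with FK506 (adjusted p = 0.00308), and that between the combination and FK506 was 0.02 ± 0.34 (SE) (adjusted p = 0.992). *Cebpa* (gene ID 12606, chr7:35119293-35121928), which encodes C/EBP alpha, the factor of granulocyte and monocyte progenitors, had an FPKM of 0.0657, 0.0331 and 0.0248 with anti-CD3 alone, 0.0931, 0.0257 and 0.0295 with *L. acidophilus*, 0.19, 0.183 and 0.00824 with FK506 and 0.645, 0.689 and 0.447 with the combination. It was low in all 9 libraries outside the combination and rose by 3.52 ± 0.73 (SE) against anti-CD3 (adjusted p = 0.00217, edgeR). *Cebpb*, which T cells also express, had its highest level with anti-CD3 alone, with an FPKM of 8.69, 9.89 and 5.08 with anti-CD3 alone, 5.35, 5.68 and 6.2 with *L. acidophilus*, 5.33, 2.97 and 4.16 with FK506 and 5.88, 4.79 and 4.07 with the combination. Anti-CD3 replicate 3 lay within the range of the other groups and replicates 1 and 2 above it. The log2 fold change was -1.05 ± 0.28 (SE) with FK506 (adjusted p = 0.0214, edgeR) and -0.89 ± 0.28 (SE) in the combination, which was not called because it was under 2-fold (adjusted p = 0.0214).

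The neutrophil part of the list was at low counts or at 0. *S100a8* had 0 counts in all 12 libraries, which allows up to 3 counts in each, and *S100a9*, the other chain of calprotectin, had 11 counts in combination replicate 2, 2 in replicate 3 and 0 in the other 10. *Csf3r*, described above, had 46, 6 and 7 counts in the combination, 16 in each of FK506 replicates 1 and 2 and 0 elsewhere, and *Trem1* had 4 counts in 1 library. Neutrophil genes outside the list, named after their values were seen, did not behave alike. *Elane*, *Camp* and *Retnlg* were at 0 in all 12 libraries. *Ltf*, lactoferrin, had 47 to 138 counts in the combination, 3 to 21 with FK506 and at most 4 in the other libraries. *Mpo*, myeloperoxidase, had 17 to 37 counts with *L. acidophilus* and at most 14 in the other libraries, and *Cxcr2*, a chemokine receptor, had up to 90 counts with anti-CD3 alone. The surface marker *Ly6g* was detected with anti-CD3 alone and at 0 in the combination.

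*Nos2* and *Chil3* encode proteins used as signs of macrophage activation. *Nos2* (gene ID 18126, chr11:78920787-78960226), the inducible nitric oxide synthase, had an FPKM of 0.136, 0.0799 and 0.037 with anti-CD3 alone, 0.761, 0.0841 and 0.0418 with *L. acidophilus*, 1.44, 0.556 and 0.46 with FK506 and 0.64, 0.675 and 0.632 with the combination. FK506 replicate 1 was the highest library, and *L. acidophilus* replicate 1 lay above all 3 combination libraries. The log2 fold change against anti-CD3 was 3.09 ± 0.90 (SE) with FK506 (adjusted p = 0.033, edgeR) and 2.67 ± 0.89 (SE) in the combination (adjusted p = 0.0303). It was not called between the combination and FK506 (-0.42 ± 0.81 (SE), adjusted p = 0.773, edgeR). The call in the combination was lost without anti-CD3 replicates 2 or 3 or combination replicates 1, 2 or 3 (highest adjusted p = 0.0947), and that with FK506 without anti-CD3 replicates 2 or 3 or FK506 replicates 1 or 2 (highest adjusted p = 0.114). *Chil3*, which encodes the chitinase-like protein Ym1 of alternatively activated macrophages, was at 0 in all 12 libraries.

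Of the 4 dendritic cell markers, 2 rose in the combination. *Flt3* (gene ID 14255, chr5:147330741-147400489), the receptor whose ligand drives dendritic cell development, had an FPKM of 0.216, 0.152 and 0.155 with anti-CD3 alone, 0.62, 0.181 and 0.278 with *L. acidophilus*, 1.47, 0.877 and 0.319 with FK506 and 5.09, 4.14 and 4.41 with the combination. The combination libraries lay above all others, and its log2 fold change was 4.47 ± 0.54 (SE) against anti-CD3 (adjusted p = 6.17e-05, edgeR) and 2.28 ± 0.48 (SE) against FK506 (adjusted p = 0.00685). *Zbtb46* (gene ID 72147, chr2:181371009-181493262), a transcription factor of classical dendritic cells, had an FPKM of 1.67, 1.92 and 1.76 with anti-CD3 alone, 1.82, 1.86 and 1.33 with *L. acidophilus*, 2.62, 1.82 and 1.23 with FK506 and 5.97, 4.94 and 4.54 with the combination. Unlike most members it was well above 0 with anti-CD3 alone. It did not differ detectably with *L. acidophilus* (-0.11 ± 0.23 (SE), adjusted p = 0.895, edgeR) or FK506 (0.05 ± 0.23 (SE), adjusted p = 0.922) and rose in the combination by 1.52 ± 0.24 (SE) (adjusted p = 0.000312). *Xcr1* (gene ID 23832, chr9:123852315-123862029), the chemokine receptor of cross-presenting dendritic cells, had an FPKM of 0.0112, 0 and 0 with anti-CD3 alone, 0.02, 0 and 0 with *L. acidophilus*, 0.0699, 0.0639 and 0 with FK506 and 0.0868, 0.0845 and 0.06 with the combination. At 15 to 28 counts in the combination it was not called (adjusted p = 0.0534, edgeR). *Siglech* (gene ID 233274, chr7:55768154-55779448), of plasmacytoid dendritic cells, had 4 counts in FK506 replicates 2 and 3, 3 in combination replicate 3 and 0 in the other 9 libraries, and was not called in any comparison.

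Adding *L. acidophilus* to FK506 was addressed by the comparison of the combination with FK506. It was called higher for 22 of the 50 members and lower for 1, *Itgax*, against 3.84% and 3.60% of all genes tested. The 22 calls included 7 of the 10 enzymes, *Clec4d*, *Clec4n* and *Clec7a*, all 3 scavenger receptors tested, *Fcer1g* and *Fcgr3*, *Adgre1* and *Sirpa*, *C1qa* and *Apoe*, *Cebpa*, and *Flt3* and *Zbtb46*. With each library left out in turn 14 of the 22 calls held in all 12 fits, and those of *C1qa*, *Cebpa*, *Ctsk*, *Fcer1g*, *Lyz2*, *Mmp12*, *Mpeg1* and *Msr1* were lost in 3 to 9 of them. The median log2 fold change over the 44 members tested was 2.08, and that of all genes 0.03. Without FK506 replicate 3 or without combination replicate 1 the count of members called higher was 14. In these fits 4.18% and 6.51% of all genes were called in either direction, against 7.44% with all 12 libraries. Against *L. acidophilus* alone, the combination was called higher for 35 members and lower for 0, while 9.93% and 6.64% of all genes were called. Of the 44 members tested, 5 were at 0 in all *L. acidophilus* libraries and could not fall in this comparison. Others, named further on, had counts only in *L. acidophilus* replicate 1 of that group. The comparisons of the combination share its 3 libraries.

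**Figure D4:**
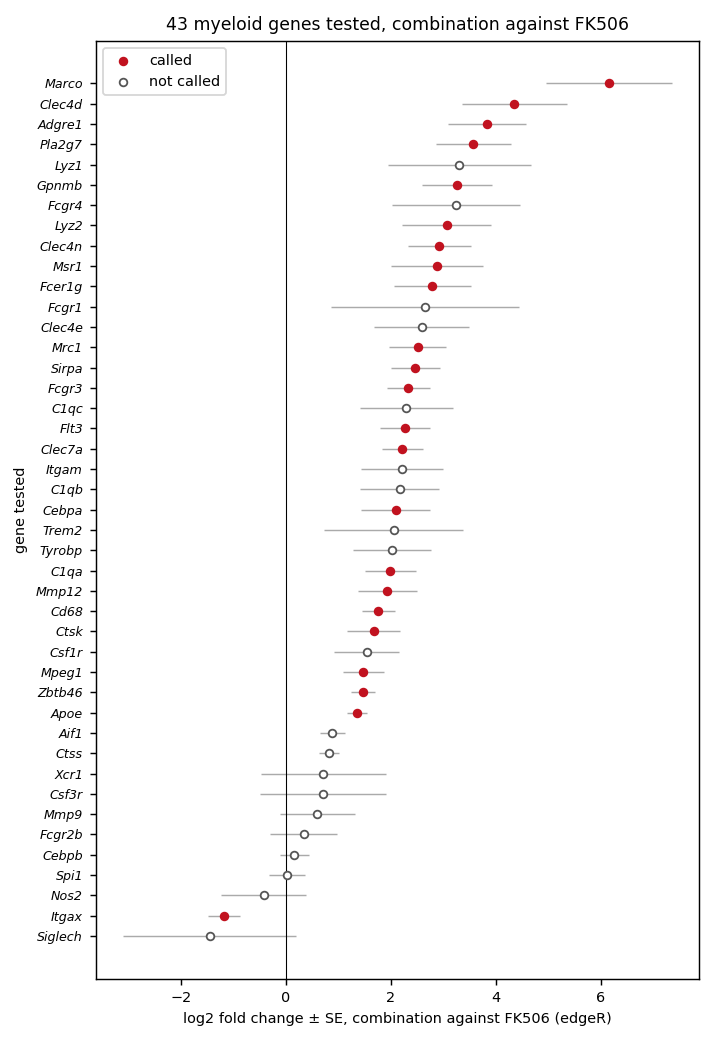
Log2 fold change of the combination against FK506 (horizontal axis, points, with the standard error as a line) for 43 of the 44 members tested by edgeR, with called genes filled. Of the 23 filled points, 22 lie to the right of 0 and *Itgax* lies to the left at -1.18.

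Whether the combination differed from the sum of the effects of *L. acidophilus* and FK506 on the log2 scale was tested as a departure from that sum, called at an adjusted p under 0.05 with no fold threshold. It was above the sum for 2 of the 50 members and below it for 0, against 1.35% and 3.0% of all genes tested. The pair were *Fcgr3*, with a departure of 2.59 ± 0.60 (SE) (adjusted p = 0.035, edgeR), and *Zbtb46*, with 1.58 ± 0.33 (SE) (adjusted p = 0.023). With single libraries left out, between 0 members (without *L. acidophilus* replicate 2 or 3 or combination replicate 2) and 4 members (without *L. acidophilus* replicate 1) were called. The call of *Fcgr3* was lost without anti-CD3 replicates 1 or 3, *L. acidophilus* replicates 2 or 3, FK506 replicates 2 or 3 or combination replicates 1, 2 or 3 (highest adjusted p = 0.096), and that of *Zbtb46* without *L. acidophilus* replicates 2 or 3 or combination replicate 2 (highest adjusted p = 0.0648). In all, 12 members had an unadjusted p under 0.05, and for members at 0 in a whole group the departure could not be estimated. DESeq2 called 7 members above the sum, and limma 25 on log2(FPKM + 1) and 12 on log2(FPKM + 0.1), while these fits called 10.1%, 7.10% and 5.99% of all genes in either direction, against 4.35% with edgeR. With the replicate number as a block, 3 members were above the sum and 6.69% of all genes were called. With edgeR most members were thus not called as more or less than additive, which does not show that they were additive. The median fitted departure was 0.91 over the 44 members tested and -0.0075 over all genes. The 0.91 includes 13 members at 0 in all anti-CD3 libraries, whose departure could not be estimated, so it does not measure a shared effect. Of the 10 T-cell markers 1, *Cd4*, was above the sum (adjusted p = 0.0219, edgeR), 6 had an unadjusted p under 0.05, and all 10 were positive, with a median of 0.61.

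With *L. acidophilus* alone the members were low, as with anti-CD3 alone, and edgeR called none. The log2 fold change against anti-CD3 was above 0 for 32 of the 44 members tested, with a median of 0.79 (0.51 with members at 0 in anti-CD3 set at their bound), where that of all genes was -0.0048. Of these 44 members, 13 were at 0 in all anti-CD3 libraries and could not fall. The count of members above 0 is therefore not evidence of a direction. All 3 *L. acidophilus* libraries lay above all anti-CD3 libraries in counts of *Ctsk* (79, 46 and 42 against 32, 7 and 5), *Mmp9* (38, 32 and 16 against 6, 6 and 10) and *Adgre1* (65, 30 and 12 against 5, 5 and 8), named after their values were seen. The same held for *Sirpa* (123, 59 and 53 against 41, 46 and 39), also named after its values were seen. For 12 other members, *L. acidophilus* replicate 1 alone of its group had counts. It had more than 3 counts of *Lyz2*, *Lyz1*, *Mmp12*, *Trem1*, *Marco*, *Msr1*, *Csf1r*, *C1qb*, *Clec4d*, *Fcgr1*, *Fcgr4* and *Xcr1*, all of which were at 0 in *L. acidophilus* replicates 2 and 3. The largest difference among members with a count in every anti-CD3 library was that of *Adgre1*, at 2.43 ± 0.90 (SE) (adjusted p = 0.241, edgeR). *Ctsk* had the smallest p of the members, at a log2 fold change of 1.89 ± 0.54 (SE) (adjusted p = 0.141). Replicate 1 was also high in other groups. Its CPM, on TMM-scaled library sizes, divided by the mean of replicates 2 and 3 had a median over the members with more than 10 counts in replicates 2 and 3 together of 1.36 with anti-CD3 alone (24 genes), 1.63 with *L. acidophilus* (23 genes), 1.94 with FK506 (38 genes, 37 of them above 1) and 1.24 with the combination (43 genes, 34 above 1), where the median over all genes was between 0.986 and 1.02. With replicates 2 and 3 only, 36 members were called higher in the combination and 23 with FK506 against anti-CD3, and 23 in the combination against FK506, of 40 members tested. In these fits 25.8%, 9.96% and 8.61% of all genes were called in either direction. Why replicate 1 was higher was not tested.

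Markers of other cells moved too. The 10 B-cell markers (*Cd79a*, *Ms4a1* and others) summed to 33.0 to 57.5 FPKM with anti-CD3 alone, 22.1 to 32.9 with *L. acidophilus* alone, 216.6 to 431.7 with FK506 alone and 133.6 to 155.1 with the combination. Of the 10, 9 rose with FK506 and 7 in the combination against anti-CD3, while 7 fell in the combination against FK506, the comparison in which 22 of the myeloid members rose. *Spi1* and *Fcgr2b*, which B cells share with myeloid cells, had log2 fold changes of 0.02 and 0.34 in that comparison, and *Ctss*, which B cells also express, had 0.82 ± 0.19 (SE), under 2-fold (adjusted p = 0.0101, edgeR). The 6 NK-cell markers summed to 1.72 to 2.77 FPKM with anti-CD3 alone, 1.38 to 2.65 with *L. acidophilus* alone, 3.86 to 9.29 with FK506 alone and 7.31 to 15.3 with the combination. *Eomes*, which T cells also express, made up most of the sum with FK506 and the combination, while *Klra8* was at 0 throughout. The 6 erythroid and platelet markers summed to at most 0.0877 FPKM with anti-CD3, 0.710 with *L. acidophilus* and 1.00 with FK506, and to 2.11 to 3.99 with the combination, where 3 of the 6 were called higher than with anti-CD3. The 7 mast cell and basophil markers summed to 1.04 to 4.45 FPKM over all libraries, with 0 called against anti-CD3 in any group. The 2 markers of CD8 T cells summed to 2.21 to 9.02 FPKM in all. Of these, *Cd8a* rose with FK506 against anti-CD3 (log2 fold change 2.38 ± 0.56 (SE), adjusted p = 0.0123, edgeR) and fell in the combination against FK506 (-1.98 ± 0.55 (SE), adjusted p = 0.0269), with a mean of 0.215 FPKM in anti-CD3 alone, 0.160 in *L. acidophilus*, 1.23 under FK506 and 0.321 under the combination. *Cd8b1* was not called in any comparison. The part of these cells in the myeloid values was not tested.

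**Figure D5:**
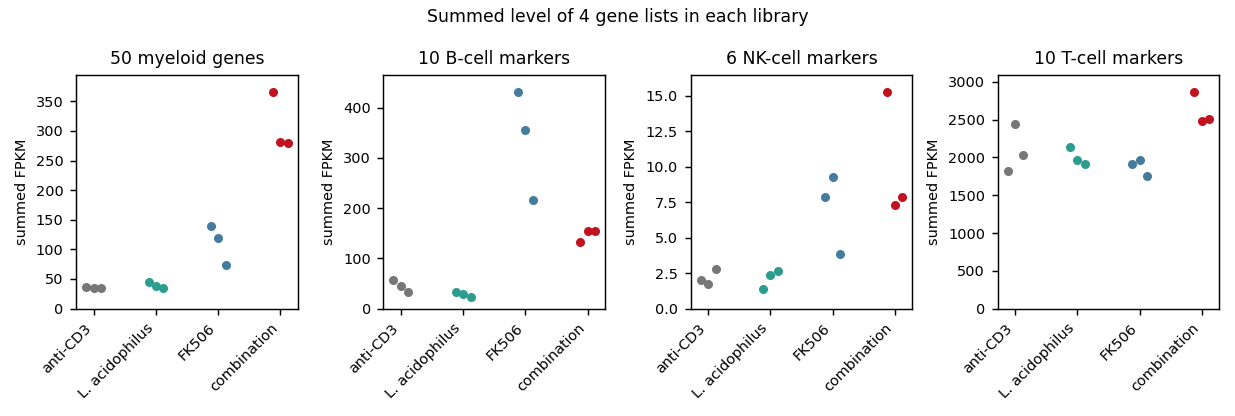
Summed FPKM (linear axes from 0) of the 50 members and of 3 marker lists in each library, with replicates 1 to 3 from left to right in each group. The members are highest in the combination, the B-cell markers are highest with FK506, and the T-cell markers lie at 2484 to 2867 FPKM in the combination and at 1749 to 2446 in the other groups.

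Another 60 myeloid genes outside the list were fixed by name, again with earlier results known, and 51 of them were tested. In the combination against anti-CD3 alone 26 of the 60 rose and 4 fell (13.8% and 10.8% of all genes tested), with FK506 11 rose and 7 fell (6.44% and 4.12% of all genes), and with *L. acidophilus* 0 were called. The combination was called higher than FK506 for 15 of the 60 and lower for 0 (3.84% and 3.60% of all genes). Above the sum of the single effects were 9 of the 60 and below it 0 (1.35% and 3.0% of all genes), with a median fitted departure of 0.87 over those tested. This median includes 6 genes at 0 in anti-CD3 alone, whose departure could not be estimated. The median log2 fold change over those tested was 1.28 in the combination, 0.53 with FK506 and -0.18 with *L. acidophilus*. With the 6 genes at 0 in anti-CD3 alone set at their bound of 3 counts per library, the median with FK506 was 0.06 and the others were the same. The 4 largest fitted changes were those of genes at 0 in a whole group, for which only a bound can be given. They were *Ms4a7*, a macrophage membrane gene, at least 69.8-fold higher in the combination, *Ly6g*, the neutrophil surface marker, at least 22.8-fold lower, *Fpr2*, a receptor for formylated bacterial peptides, at least 16.6-fold higher, and *Fabp4*, a fatty acid carrier, at least 14.4-fold higher. Among genes detected in both groups, *Pirb*, an inhibitory receptor, had a log2 fold change of 5.93 ± 0.87 (SE) in the combination (adjusted p = 0.000214, edgeR) and *Csf2rb*, the shared beta chain of cytokine receptors, 5.69 ± 0.88 (SE) (adjusted p = 0.000309), and both were named after their values were seen. *Ly6g* counts ranged from 26 to 132 with anti-CD3 alone, from 5 to 12 with *L. acidophilus* and from 0 to 11 with FK506, and all combination libraries were at 0. The other genes of this list that fell were *Batf3*, *Lilrb4a* and *Cebpd*, with log2 fold changes of -3.95, -2.53 and -1.57, and these were named after their values were seen. *Batf3*, a factor of dendritic cells that activated T cells also express, was at 46.6 ± 15.6 FPKM (SD, n = 3) with anti-CD3 alone and 3.45 ± 1.25 with the combination.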

How the data were processed

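The 12 libraries were grouped by their labels (4 groups of 3). Per the labels, the submitters' processing notes name bcl2fastq 2.20.0, Trimmomatic, HISAT2 2.1.0 and StringTie 2.1.3b with mm10 (GRCm38), while the study's text names a range migration algorithm and quantile normalization. The authors deposited read counts per gene as whole numbers without normalization, which can be rounded estimates, and FPKM values scaled to transcript length and library size. The table also holds TPM values, which the authors deposited scaled to a fixed sum per library and which were left out here (12 columns). Levels are deposited FPKM, comparable between genes per length. With 45416397 to 64658165 counts per library, folds against a group at 0 were taken against 3 counts per library, and ratios to 1 to 3 counts carry an exact 95% binomial interval. These cover counting error only.

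Testing covered 23585 genes with counts in 3 or more libraries and used edgeR 4.0.16 (quasi-likelihood, TMM factors, 1 mean per group, all 12 libraries) in R 4.3.3, and calls required an adjusted p (Benjamini-Hochberg) below 0.05 and 2-fold or more. SE was derived from the log2 fold change and F (the former over the root of the latter). Alternatives were relative log expression factors, 2 other filters, a replicate block, DESeq2 1.42.0, limma 3.58.1 on log2(FPKM + 1) and log2(FPKM + 0.1), only the libraries compared, replicates 2 and 3 only, and each library left out. The labels do not say what the replicate numbers share. Deviations of same-numbered libraries correlated over 0.1 in every pair between anti-CD3 and *L. acidophilus* (0.193 to 0.478) and between *L. acidophilus* and the combination (0.124 to 0.209). In each of the other pairs of groups at least 1 of the 3 numbers fell under 0.1, though *L. acidophilus* and FK506 reached 0.486 in replicate 1. The main fit paired no libraries, and the replicate block took the numbers to pair all 12. The tests were tried on simulated data with known answers. The members and all lists were chosen with earlier results of these data known. Values in every library are given for 16 defining members and for the 2 members of each role group with the largest change in the combination, and other members named this way were picked after their values were seen. The values of 1 member are not reported here, and it stays in the counts and sums over the list. Gene positions and promoters are RefSeq's (GRCm38.p6), matched by gene ID or symbol. Plots used matplotlib 3.10.9 (Python 3.11.15).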

Additional observations from a re-analysis of the deposited data

Results flagged for a closer look

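For *Fcgr3* and *Zbtb46* the effect of *L. acidophilus* differed between cells with and without FK506. The combination exceeded the summed effects by 2.59 on the log2 scale for *Fcgr3* (adjusted p = 0.035, edgeR) and 1.58 for *Zbtb46* (adjusted p = 0.023, edgeR). For *Fcgr3*, *L. acidophilus* gave -0.26 against anti-CD3 and 2.34 when added to FK506, and for *Zbtb46* the values were -0.11 and 1.47. Among the 44 members tested these were the calls of this kind with edgeR on all 12 libraries and no replicate block. With each library left out in turn, the call was lost in 9 of 12 fits for *Fcgr3* and in 3 of 12 for *Zbtb46*.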

How the results depend on the processing

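Of the 128 calls of single members, none changed direction under any alternative, and relative log expression factors and both other filters kept all 128. DESeq2 kept 120 and limma on log2(FPKM + 0.1) 118, while limma on log2(FPKM + 1), a scale that understates changes of low genes, kept 76. The members called higher in the combination against anti-CD3 numbered 24 with limma on log2(FPKM + 1), and those with FK506 numbered 7, where the share of all genes called in either direction was 9.83% against 24.6% with edgeR and 4.10% against 10.6%. With log2(FPKM + 0.1) the median of all genes shifted to 0.11 in the combination against anti-CD3. *L. acidophilus* gave 4 higher members with DESeq2. Members above the sum of the single effects numbered 7 with DESeq2, 25 with limma on log2(FPKM + 1) and 12 on log2(FPKM + 0.1). The 1 member lower with FK506 against anti-CD3 became 0 with both limma fits, with replicates 2 and 3 only and with only the libraries compared, and the 1 member lower in the combination against FK506 became 0 with both limma fits and with replicates 2 and 3 only. The cause of these changes was not tested.

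With each library left out in turn, members called higher numbered 37 to 41 in the combination against anti-CD3, 18 to 31 with FK506, 14 to 26 in the combination against FK506, and 0 to 4 lay above the sum of the single effects. The share of all genes called in either direction ranged in these fits from 20.4% to 25.0%, 7.12% to 11.0%, 4.18% to 8.19% and 1.42% to 6.25%. In all fits 35 of the 39 higher calls in the combination and 18 of the 28 with FK506 held. Members called lower ranged from 0 to 1 in the combination against anti-CD3, 0 to 1 with FK506 and 0 to 2 in the combination against FK506.

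Over all 6 pairs of groups the deviations of same-numbered libraries correlated between -0.12 and 0.49, over 0.1 in 12 of 18 pairs, and 7 of 12 libraries correlated best with their own number. With the replicate number as a block, 40 members were higher in the combination and 27 with FK506 against anti-CD3, 26 in the combination against FK506 and 36 against *L. acidophilus*, 0 with *L. acidophilus* against anti-CD3 and 3 above the sum of the single effects, and 1 of the 128 calls was lost (*C1qc* with FK506, adjusted p = 0.059, edgeR). In the same order, 23.9%, 10.7%, 8.14%, 16.7%, 0.293% and 6.69% of all genes were called in either direction in this fit. Depth limits genes with a handful of counts, such as *Fcgr1*, *Siglech*, *S100a9* and *Cd163*, where a difference was not detectable.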
